A study of Homo sapiens with 4 samples.

Results

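The genes described are the SR proteins, the heterogeneous nuclear ribonucleoproteins (hnRNPs) and the kinases that act on SR proteins, in MDA-MB-231 cells given the compound YW-LF. Members were taken by symbol: those beginning SRSF or HNRNP, together with TRA2A, TRA2B and CLK1 to CLK4. The rule found 44 of the 20263 genes in the count table, namely 12 SRSF, 26 HNRNP, 2 TRA2 and 4 CLK genes, and 39 of them held enough reads to be tested. MDA-MB-231 is a human cell line established from a triple-negative breast cancer. Its cells were treated for 24 h with YW-LF (n = 2 libraries), which the series title describes as derived from ribociclib, a drug that blocks CDK4 and CDK6, or kept as DMSO controls (n = 2 libraries). The labels state no dose and do not say whether replicates came from separate cultures, so the tests measure only the spread between these samples. All libraries come from 1 cell line, without genetic changes named in the labels.

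SR proteins bind exonic enhancer sequences through RNA recognition motifs and recruit the spliceosome through domains rich in arginine and serine. The hnRNPs coat nascent transcripts and often act against SR proteins at the same exons, and both groups also serve in RNA export, stability and translation. TRA2A and TRA2B are relatives of SR proteins that activate exons, and the CLK kinases phosphorylate SR proteins in the nucleus and release them from speckles. Many of these genes regulate their own transcripts through poison exons or retained introns. Gene-level counts do not separate such transcripts from coding ones.

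The 4 libraries held 34774542 to 40218240 counts. Counts differed more within the YW-LF pair than within the DMSO pair (chi-square per degree of freedom 596 against 257), and the scaling factors from the trimmed mean of M-values (TMM) were 1.08 and 0.886 in DMSO and 1.25 and 0.838 in YW-LF. Mitochondrially encoded genes held 8.68% and 21.7% of counts in DMSO and 3.14% and 6.58% in YW-LF, and ribosomal protein genes 3.27% and 2.48% in DMSO and 3.90% and 9.50% in YW-LF. With mitochondrially encoded genes removed, 4 members were above and 12 below DMSO in both treated libraries, the same counts as with them. With them kept, 28% of all genes were above and 27.8% below. edgeR called 0 genes in either fit, members included, so its calls cannot show a difference. The part of the ribosomal protein share in the results was not tested. The line's mesenchymal genes were abundant, with VIM at 2122 to 4154 CPM (counts scaled to library size, here with TMM factors unless stated), whereas the hormone receptor genes ESR1 and PGR were at 0.129 to 1.73 CPM and the epithelial cadherin gene CDH1 had at most 13 reads in a library. GATA3, also on the list of luminal or epithelial genes, passed the count filter, as did ESR1 and PGR. The log2 ratio of GATA3 to the DMSO mean, with 0.5 CPM added to both values, was -2.13 in YW-LF 1 and -1.80 in YW-LF 2. Its level in CPM is not given here. All 4 listed markers of the line (VIM, AXL, CD44 and CAV1) were lower in both YW-LF libraries than in DMSO (3 of 4 in plain CPM), and the part of this in the results was not tested. Below, libraries are named by group and replicate number (YW-LF 1, YW-LF 2).

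No member was called when p-values were adjusted over all genes: by edgeR (quasi-likelihood test, Benjamini-Hochberg adjustment) 0 of 39 members and 0 of 13816 genes (0%) passed the 0.05 threshold. At an unadjusted p under 0.05, 2 members were higher (SRSF9 and CLK1; 11.5% of all genes) and 5 lower (HNRNPA1, HNRNPD, HNRNPR, HNRNPUL1 and HNRNPUL2; 9.01%). DESeq2 with the same adjustment called 1 member higher, CLK1 (5.91% of all genes were called higher), and 2 lower, HNRNPR and HNRNPUL1 (4.49% lower). In either direction these were 7 members by unadjusted p (20.5% of all genes) and 3 by DESeq2 (10.4%). edgeR called 0 members with the replicate number as a block (2.4% of all genes) and 0 with genes kept at a total count of at least 1 (1.64%). Fits with only 1 treated library take its spread to equal that of the DMSO pair, so their calls are not counted. An exact two-sided permutation test of 2 against 2 libraries cannot go below p = 0.333, so single values below are given with their spread and without such a test.

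The sequences just before the transcription starts of 6 members show what lies upstream of the genes whose libraries separated by group. They are the 3 higher and the 3 lower members of lowest p that RefSeq lists with starts within 250 bases of each other. Each line holds the 250 bases before the first listed start, 5′ to 3′, from the RefSeq promoter table for GRCh38.p14, with capitals marking CCAAT boxes (CCAAT), GC boxes (GGGCGG), cAMP response elements (TGACGTCA), TATA boxes (TATAAA) and E2F sites (TTTCCCGC, TTTGGCGC, TTTCGCGC or TTTGCCGC) on either strand.
CLK1 (chr2:200864659-200864908, minus strand): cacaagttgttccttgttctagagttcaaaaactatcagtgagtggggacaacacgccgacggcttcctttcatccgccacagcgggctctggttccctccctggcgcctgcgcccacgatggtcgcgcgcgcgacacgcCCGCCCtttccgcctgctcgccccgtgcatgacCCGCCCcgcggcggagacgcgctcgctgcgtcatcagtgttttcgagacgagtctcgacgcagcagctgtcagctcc
SRSF9 (chr12:120469749-120469998, minus strand): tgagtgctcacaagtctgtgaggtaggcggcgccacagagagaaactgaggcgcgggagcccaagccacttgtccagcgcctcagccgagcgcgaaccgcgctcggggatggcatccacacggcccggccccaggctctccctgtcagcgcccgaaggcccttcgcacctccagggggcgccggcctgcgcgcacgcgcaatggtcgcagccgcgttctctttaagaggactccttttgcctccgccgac
HNRNPA0 (chr5:137754364-137754613, minus strand): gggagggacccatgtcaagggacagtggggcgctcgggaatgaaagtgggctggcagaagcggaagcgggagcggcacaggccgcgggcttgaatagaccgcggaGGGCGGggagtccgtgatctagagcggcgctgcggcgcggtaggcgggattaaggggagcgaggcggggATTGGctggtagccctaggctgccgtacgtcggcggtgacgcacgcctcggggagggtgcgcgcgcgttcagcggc
HNRNPR (chr1:23344285-23344534, minus strand): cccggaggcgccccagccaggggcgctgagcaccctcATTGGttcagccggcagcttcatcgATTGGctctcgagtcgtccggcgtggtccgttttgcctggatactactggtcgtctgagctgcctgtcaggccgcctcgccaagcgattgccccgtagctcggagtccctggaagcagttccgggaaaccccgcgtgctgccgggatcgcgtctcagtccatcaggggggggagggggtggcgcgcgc
HNRNPD (chr4:82373992-82374241, minus strand): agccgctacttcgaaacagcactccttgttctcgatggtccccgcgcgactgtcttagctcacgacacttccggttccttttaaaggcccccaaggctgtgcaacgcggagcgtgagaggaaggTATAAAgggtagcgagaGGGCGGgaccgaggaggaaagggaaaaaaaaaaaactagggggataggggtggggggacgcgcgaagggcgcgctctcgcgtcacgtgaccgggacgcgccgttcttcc
HNRNPUL2 (chr11:62727458-62727707, minus strand): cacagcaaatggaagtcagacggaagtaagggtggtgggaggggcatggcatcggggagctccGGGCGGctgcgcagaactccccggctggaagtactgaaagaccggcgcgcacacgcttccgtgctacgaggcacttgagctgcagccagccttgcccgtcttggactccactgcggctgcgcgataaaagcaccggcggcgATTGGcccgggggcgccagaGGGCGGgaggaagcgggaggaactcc
The CLK1 window has GC boxes that begin 110 and 77 bases before the start, and that of SRSF9 has none of the 5 motifs. HNRNPR has 2 CCAAT boxes, 213 and 188 bases before its start, and HNRNPD has a TATA box at 126 and a GC box at 109 bases. Of the 39 tested members 36 had a RefSeq window. A CCAAT box was present in 17 of these (47.2%, against 35.0% of 10998 windows of tested genes), a GC box in 24 (66.7% against 66.4%), a TATA box in 5 (13.9% against 5.75%), an E2F site in 5 (13.9% against 4.38%) and a cAMP response element in 0 (0% against 2.79%). HNRNPUL2 and the read-through locus HNRNPUL2-BSCL2, which begins within it, were counted separately, and both had CCAAT and GC boxes. The E2F letters were in SRSF10, HNRNPA3, HNRNPK, HNRNPLL and TRA2B, of which only HNRNPA3 had its groups apart. A match describes these letters and is not a binding site.

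Summed over each family, the hnRNP and SR genes stood in a lower ratio in both treated libraries. The hnRNP sum was 8149.9 and 8163 CPM in DMSO, 4024 CPM in YW-LF 1 and 7728 CPM in YW-LF 2. The SR sum was 1533 and 1532 CPM in DMSO, 1142 CPM in YW-LF 1 and 2558 CPM in YW-LF 2. On this scale YW-LF 1 was below DMSO for both families, and YW-LF 2 was above DMSO for SR genes and below it for hnRNP genes. In plain CPM the SR sum was 1651 and 1357 in DMSO, 1427 in YW-LF 1 and 2142 in YW-LF 2, so YW-LF 1 lay between the controls. The ratio of the hnRNP sum to the SR sum, which does not depend on how libraries are scaled, was 5.32 and 5.33 in DMSO and 3.52 and 3.02 in YW-LF, so the groups did not overlap. With SRSF3 left out of the SR sum it was 6.38 and 6.41 in DMSO and 4.03 and 4.15 in YW-LF. In bulk RNA, fewer expressing cells and less RNA per cell cannot be told apart. The TRA2 sum was 353 and 356 CPM in DMSO, 189 CPM in YW-LF 1 and 652 CPM in YW-LF 2. The CLK sum was 131 and 148 CPM in DMSO, 172 CPM in YW-LF 1 and 454 CPM in YW-LF 2, a mean of 139 ± 12.2 in DMSO and 313 ± 199 in YW-LF (SD, n = 2 each). Both treated libraries were thus above both controls for the CLK sum and below them for the hnRNP sum, in TMM-scaled as in plain CPM. Without YW-LF replicate 2, the log2 ratio of the CLK sum was 0.29 in place of 1.17.

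**Figure D1:**
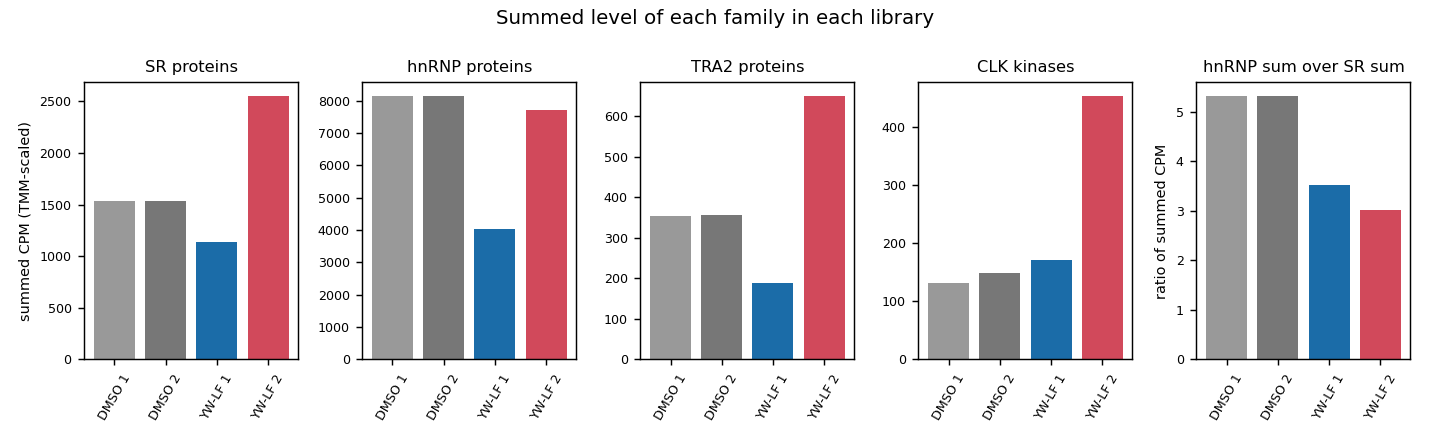
Bars give the summed TMM-scaled CPM of the tested members of each family in each of the 4 libraries, and the last panel the hnRNP sum divided by the SR sum (no unit). The ratio is 5.32 and 5.33 in DMSO against 3.52 and 3.02 in YW-LF, while YW-LF 1 and YW-LF 2 lie on opposite sides of DMSO for the SR and TRA2 sums (in plain CPM for TRA2 only).

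The treated libraries disagreed in direction for many members. In 15 of the 39 (38.5%), YW-LF 1 was below both DMSO libraries and YW-LF 2 above both, an arrangement found in 10.2% of all genes tested, and the reverse occurred in 0 members. YW-LF 2 exceeded YW-LF 1 in 35 of 39 members (89.7%, against 49.5% of all genes), with a median log2 difference between them of 0.96. The count depends on the scaling: in plain CPM, without TMM factors, 7 members (17.9%) had the opposed arrangement against 3.27% of all genes, and YW-LF 2 was above YW-LF 1 in 27 (69.2% against 28.6%). Transcript length moved with this difference over all genes, with a median log2 of YW-LF 2 over YW-LF 1 of 0.32 in the shortest and -0.28 in the longest of 3 equal classes by exon length. Among members the medians were 1.19, 0.87 and 0.86 in the short, middle and long classes (12, 17 and 10 members). The same arrangement was present in other splicing genes, in 19 of 47 core spliceosome genes (40.4%) and 16 of 35 SR-related genes (45.7%), so it was not particular to the members.

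Groups that did not overlap were fewer among members than among all genes, and this lay in the higher direction, not in the lower. Both YW-LF libraries were above both DMSO libraries in 4 members (28% of all genes) and below them in 12 (27.8%), and 23 overlapped, so that 16 of 39 were apart (41.0%, against 55.8% of all genes). The higher members were CLK1, CLK3, SRSF9 and HNRNPA0, and the lower ones comprised 9 hnRNP genes with SRSF2, SRSF7 and SRSF8. In plain CPM the counts were 5 and 12, against 28.7% and 21.2% of all genes. The median log2 fold change was -0.07 over all 39 members, -0.03 over 11 SR genes, -0.28 over 22 hnRNP genes, 0.28 over the TRA2 pair and 0.65 over the 4 CLK genes, beside 0.063 over all genes tested. Without YW-LF replicate 2 the medians were -0.73 for SR genes, -0.74 for hnRNP genes, -0.83 for TRA2 genes and 0.22 for CLK genes. With YW-LF replicate 1 left out they were 0.49, 0.043, 0.90 and 0.94 in the same order, so only the CLK median kept its sign in both fits.

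**Figure D2:**
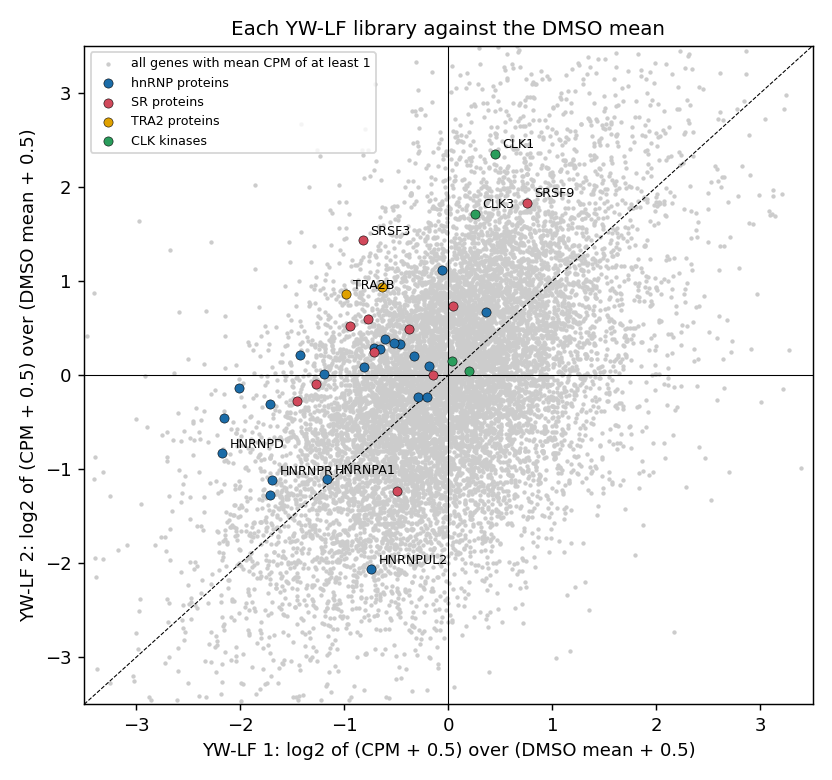
Each point is a gene (grey, all genes with a mean of at least 1 CPM; coloured, members by family), with its log2 ratio to the DMSO mean in YW-LF 1 (x axis) and YW-LF 2 (y axis), 0.5 CPM being added to both values; the dashed line marks equal ratios, and genes beyond 3.5 on either axis are not drawn. Both axes share the DMSO libraries. Most members lie above the dashed line (35 of 39 have more CPM in YW-LF 2 than in YW-LF 1), with HNRNPUL2 and SRSF8 below it.

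Among the kinases, CLK1 and CLK3 had their groups apart and CLK2 and CLK4 did not. CLK1 (ENSG00000013441, chromosome 2, 200853009 to 200864744 in GRCh38, GENCODE 29) stood at 47.1 and 52.8 CPM in DMSO, 68.2 CPM in YW-LF 1 and 257 CPM in YW-LF 2. Most of that difference lay in YW-LF 2, which was 5.15 times the DMSO mean, against 1.37 times for YW-LF 1. The log2 fold change was 1.70 (SE 0.63, edgeR adjusted p = 0.210), and it was 0.44 without YW-LF replicate 2 and 2.36 with YW-LF replicate 1 left out. DESeq2 called CLK1 (adjusted p = 0.045), and no other fit with 2 libraries per group did. CLK3 (chromosome 15, 74598500 to 74645414) was at 42.5 and 47.9 CPM in DMSO, 54.0 CPM in YW-LF 1 and 149.8 CPM in YW-LF 2 (log2 change 1.17, SE 0.53, edgeR adjusted p = 0.268). Without YW-LF replicate 2 its log2 fold change was 0.25. CLK2 was at 30.6 and 34.9 CPM in DMSO and 37.8 and 33.7 CPM with YW-LF, and CLK4 at 10.7 and 12.4 CPM in DMSO and 11.8 and 12.8 CPM with YW-LF. Their log2 fold changes were 0.13 (SE 0.35) and 0.10 (SE 0.40), and both sets of libraries overlapped. Within a library the ratio of CLK1 to CLK4 counts was 4.42 and 4.26 in DMSO, 5.78 in YW-LF 1 and 20.04 in YW-LF 2.

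SRSF9, a small SR protein that works in constitutive and alternative splicing, was the SR gene of lowest p. It was at 87.0 and 75.1 CPM in DMSO, 137 CPM in YW-LF 1 and 290.0 CPM in YW-LF 2 (81.0 ± 8.40 against 214 ± 108, SD, n = 2 each). Both treated libraries were above both controls, by 1.69 and 3.58 times the DMSO mean, and the log2 fold change was 1.40 (SE 0.47, edgeR adjusted p = 0.185). SRSF9 (ENSG00000111786, chromosome 12, 120461668 to 120469793) kept a positive value without any 1 library, from 0.75 to 1.84, the lowest being without YW-LF replicate 2.

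SRSF3, a short SR protein that also links splicing to mRNA export, differed most between the treated libraries in this family. It was at 255 and 258 CPM in DMSO, 145 CPM in YW-LF 1 and 694 CPM in YW-LF 2, so YW-LF 2 held 4.78 times the level of YW-LF 1. Its share of the SR sum was 16.6% and 16.9% in DMSO, 12.7% in YW-LF 1 and 27.1% in YW-LF 2. The log2 fold change of 0.71 (SE 0.72, edgeR adjusted p = 0.605) became -0.84 without YW-LF replicate 2 and 1.43 with YW-LF replicate 1 left out. SRSF1, a prototype of the family with roles in splice site choice, was at 195 and 162 CPM in DMSO, 92.9 CPM in YW-LF 1 and 257 CPM in YW-LF 2. The TRA2 genes had the same arrangement: TRA2B was at 282 and 266 CPM in DMSO, 138 CPM in YW-LF 1 and 497 CPM in YW-LF 2. TRA2A was at 71.3 and 90.0 CPM in DMSO, 51.5 CPM in YW-LF 1 and 155 CPM in YW-LF 2. SRSF4 was at 112.3 and 111.8 CPM in DMSO, 65.4 CPM in YW-LF 1 and 170.1 CPM in YW-LF 2. In all 5 of these genes the treated libraries lay on either side of both controls. SRSF6, at 185 and 209 CPM in DMSO, 151 CPM in YW-LF 1 and 278 CPM in YW-LF 2, and SRSF10, an atypical family member that can repress splicing when dephosphorylated, at 142 and 131 CPM in DMSO, 83.2 CPM in YW-LF 1 and 161.5 CPM in YW-LF 2, were arranged alike with smaller gaps. In plain CPM the arrangement held for the first 5 genes and not for SRSF6 and SRSF10.

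SRSF5 was at 258 and 282 CPM in DMSO, 279 CPM in YW-LF 1 and 449 CPM in YW-LF 2, and only YW-LF 2 stood apart from the controls (in plain CPM both treated libraries were above them). SRSF11 had the smallest range of the SR genes over the 4 libraries, at 116 and 114 CPM in DMSO and 104 and 115 CPM with YW-LF (log2 change -0.07, SE 0.34). SRSF2, whose protein is mutated in myeloid neoplasms, was at 76.8 and 82.6 CPM in DMSO, 28.8 CPM in YW-LF 1 and 65.6 CPM in YW-LF 2. SRSF7, a close relative of SRSF3 with a zinc knuckle, was at 67.5 and 61.6 CPM in DMSO, 26.4 CPM in YW-LF 1 and 60.3 CPM in YW-LF 2. For both, YW-LF 1 was far below the controls and YW-LF 2 less far, at 0.82 (SRSF2) and 0.93 (SRSF7) times the DMSO mean. SRSF8 is an intronless copy of SRSF2 whose reads may be shared with it. It was at 38.1 and 44.0 CPM in DMSO, 29.1 CPM in YW-LF 1 and 17.2 CPM in YW-LF 2. With TMM factors it was the one SR gene with its lowest value in YW-LF 2, and in plain CPM SRSF11 was lowest there too (96.3). The log2 fold changes of SRSF2, SRSF7 and SRSF8 were -0.76 (SE 0.47), -0.58 (SE 0.47) and -0.83 (SE 0.41). None of them was called by edgeR (adjusted p = 0.394, 0.517 and 0.298). SRSF12 had 0 reads in every library, which allows up to 0.0746 to 0.0863 CPM (3 counts per library, counting error only).

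**Figure D3:**
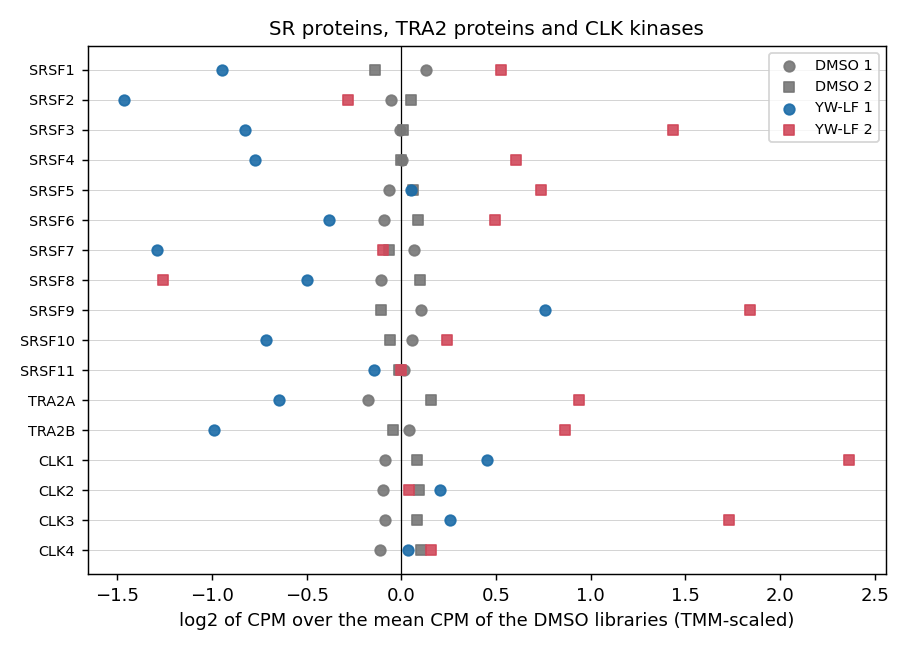
Points give, for each SR, TRA2 and CLK gene (rows), the log2 of the TMM-scaled CPM in each library over the DMSO mean. CLK1, CLK3 and SRSF9 have both YW-LF points to the right of both DMSO points; SRSF1, SRSF3, SRSF4 and the TRA2 genes have YW-LF 1 to the left and YW-LF 2 to the right.

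Lower levels in both treated libraries were found in 9 of 22 tested hnRNP genes (27.8% of all genes), and higher ones in 1 (28% of all genes). HNRNPR, which binds AU-rich RNA and takes part in neuronal mRNA transport, had the lowest p of the family. It was at 244 and 262 CPM in DMSO and 78.0 and 117 CPM with YW-LF (log2 change -1.38, SE 0.40, edgeR adjusted p = 0.151), so both treated libraries were under 0.5 of the DMSO mean, at 0.31 and 0.46. HNRNPR (ENSG00000125944) lies on chromosome 1, 23303771 to 23344336. DESeq2 called it lower (adjusted p = 0.033), and no other fit with 2 libraries per group did. HNRNPUL1, a relative of HNRNPU with a role in the DNA damage response, was at 525 and 933 CPM in DMSO and 222 and 301 CPM with YW-LF (log2 change -1.48, SE 0.50, edgeR adjusted p = 0.188). The DMSO libraries differed widely for this gene, and the fitted value became -1.83 when DMSO replicate 1 was left out and -1.02 when DMSO replicate 2 was. DESeq2 called HNRNPUL1 as well (adjusted p = 0.031), again the only fit with 2 libraries per group to do so.

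HNRNPA1, an abundant repressor of exon inclusion that counteracts SRSF1, differed little within the treated pair with TMM factors. In plain CPM it was at 656 and 448 in DMSO, 311 in YW-LF 1 and 217 in YW-LF 2. With TMM factors it was at 609 and 506 CPM in DMSO and 249 and 259 CPM with YW-LF, a 2.20-fold lower level (log2 change -1.13, SE 0.42, edgeR adjusted p = 0.209). Its value ranged from -1.28 to -0.98 when single libraries were left out. GENCODE 29 lists 74 pseudogenes named after HNRNPA1 (chromosome 12, 54280193 to 54287088), and its reads may be shared with them and with the related HNRNPA1L2, so its level is uncertain. HNRNPA1L2 was at 16.7 and 15.3 CPM in DMSO and 13.0 and 13.5 CPM with YW-LF. HNRNPA2B1, which is close to HNRNPA1 in sequence, was at 1386 and 1206 CPM in DMSO, 482 CPM in YW-LF 1 and 1503 CPM in YW-LF 2. The ratio of HNRNPA1 to HNRNPA2B1 counts was thus 0.440 and 0.420 in DMSO, 0.516 in YW-LF 1 and 0.172 in YW-LF 2.

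HNRNPD (AUF1, which promotes decay of AU-rich mRNAs) was at 397 and 480.2 CPM in DMSO, 96.7 CPM in YW-LF 1 and 246 CPM in YW-LF 2 (log2 change -1.36, SE 0.55, edgeR adjusted p = 0.237). Its relative HNRNPDL was at 314 and 373 CPM in DMSO, 218 CPM in YW-LF 1 and 415 CPM in YW-LF 2. The ratio of HNRNPD to HNRNPDL counts was 1.26 and 1.29 in DMSO and 0.443 and 0.592 in YW-LF, lower in both treated libraries, a pair chosen after its values were seen. HNRNPUL2 was at 281 and 287 CPM in DMSO, 169.9 CPM in YW-LF 1 and 67.5 CPM in YW-LF 2, and with SRSF8 it was among the 4 members lower in YW-LF 2 than in YW-LF 1. The read-through locus HNRNPUL2-BSCL2, which overlaps HNRNPUL2, was at 4.94 to 6.96 CPM. HNRNPM, a regulator of splicing in the epithelial-mesenchymal transition, was at 244 and 250.4 CPM in DMSO, 54.9 CPM in YW-LF 1 and 179 CPM in YW-LF 2. HNRNPA3 and HNRNPAB were lower in the same way, at 0.30 and 0.25 times the DMSO mean in YW-LF 1 and 0.81 and 0.91 times in YW-LF 2.

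With TMM factors, 8 of the 22 hnRNP genes, among them some of the most abundant, were below both controls in YW-LF 1 and above both in YW-LF 2. In plain CPM this held for 2 of the 22, HNRNPDL and HNRNPH3, and for none of HNRNPK, HNRNPU and HNRNPC. HNRNPK, a KH-domain protein of transcription and translation, was at 888 and 722 CPM in DMSO, 560.5 CPM in YW-LF 1 and 1021 CPM in YW-LF 2. HNRNPU, a scaffold protein of nuclear architecture, was at 623 and 612 CPM in DMSO, 375 CPM in YW-LF 1 and 754 CPM in YW-LF 2. HNRNPC, which binds uridine tracts and masks cryptic exons, was at 425 and 353 CPM in DMSO, 283 CPM in YW-LF 1 and 489 CPM in YW-LF 2. Their mean differences were small against their SE, with log2 fold changes of -0.03 (SE 0.52), -0.13 (SE 0.51) and -0.01 (SE 0.47). For HNRNPK and HNRNPC these values changed sign without DMSO replicate 1 (0.14 and 0.13), and for all 3 without YW-LF replicate 1 (0.34, 0.29 and 0.33). HNRNPF, HNRNPH3, HNRNPL and HNRNPDL had the same arrangement with TMM factors, while in plain CPM HNRNPF overlapped the controls and HNRNPL was below them in both treated libraries. HNRNPH1 and HNRNPLL overlapped the controls, with fitted values of -0.47 and -0.22. HNRNPA0 and HNRNPH2 had the highest fitted values of the family. HNRNPA0, a single-exon gene whose protein binds AU-rich elements, was at 143 and 119.9 CPM in DMSO and 169.5 and 209.5 CPM with YW-LF (log2 change 0.53, SE 0.37). HNRNPH2, whose protein binds guanosine runs, was at 71.0 and 53.3 CPM in DMSO, 59.7 CPM in YW-LF 1 and 136 CPM in YW-LF 2. HNRNPCL1, HNRNPCL2 and HNRNPCL3 had 0 reads in all libraries, and HNRNPCL4 had 1 read in YW-LF 1.

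**Figure D4:**
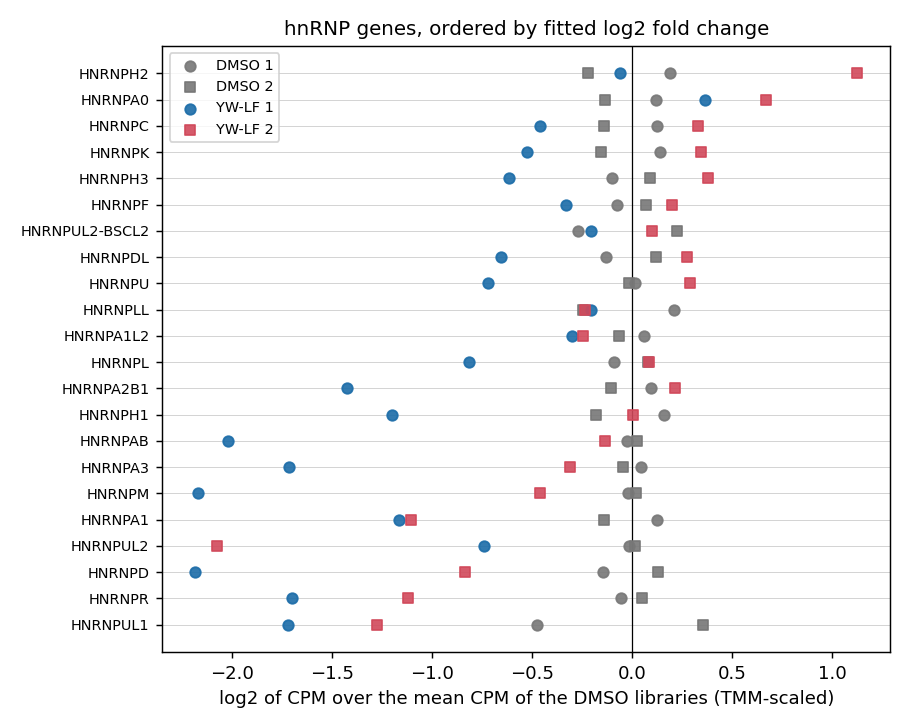
Points give, for the 22 tested hnRNP genes (rows, ordered by fitted log2 fold change), the log2 of the TMM-scaled CPM in each library over the DMSO mean. At the bottom, HNRNPUL1, HNRNPR, HNRNPD, HNRNPUL2 and HNRNPA1 have both YW-LF points left of both DMSO points. YW-LF 1 lies far left for HNRNPM and HNRNPAB, while YW-LF 2 lies less far left (-0.46 and -0.14).

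Per kilobase of exon, the order of levels in DMSO was led by hnRNP genes. HNRNPK had 264 CPM per kb, HNRNPA2B1 218, HNRNPUL1 175, HNRNPAB 148 and HNRNPD 143 CPM per kb. The SR and TRA2 genes came lower, with TRA2B at 89.7, SRSF5 at 81.5, SRSF9 at 67.5 and SRSF3 at 58.5 CPM per kb, and SRSF8 was lowest among tested SR genes at 10.2 CPM per kb. CLK1, CLK3 and CLK2 followed each other at 20.2, 16.4 and 15.1 CPM per kb, and CLK4 was at 2.87 CPM per kb. In YW-LF the mean for SRSF9 was 178 CPM per kb, a level above every member but HNRNPK (260 CPM per kb), although YW-LF libraries differ 2.12-fold for SRSF9. The exon lengths come from annotation, not from the transcripts these cells make, so neighbours in this order are not told apart.

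Genes with related roles that the symbols do not capture were listed separately, again with 0 called by edgeR in any list. Of 7 hnRNP proteins with other symbols, 3 were below DMSO in both treated libraries and 1 above. For these counts and those of the lists that follow, the shares over all genes tested are 27.8% below and 28% above (21.2% and 28.7% in plain CPM), or 55.8% apart in either direction. PTBP1 (hnRNP I), a pyrimidine-tract binding repressor, was at 377 and 437 CPM in DMSO and 115 and 163 CPM with YW-LF (log2 change -1.55, SE 0.42, edgeR adjusted p = 0.140). RBMX was at 151 and 147 CPM in DMSO and 47.7 and 67.4 CPM with YW-LF, and SYNCRIP, closest to HNRNPR, at 240.5 and 223 CPM in DMSO and 148 and 163 CPM with YW-LF. PTBP2, the PTBP1 relative whose transcript PTBP1 is known to hold down through exon skipping and decay, was at 16.8 and 17.8 CPM in DMSO, 25.97 CPM in YW-LF 1 and 120.3 CPM in YW-LF 2 (chosen after its values were seen). The ratio of PTBP2 to PTBP1 counts was 0.0445 and 0.0406 in DMSO and 0.226 and 0.737 in YW-LF.

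Of 6 other kinases of SR proteins, 2 were below (27.8% of all genes) and 3 above (28%), and in plain CPM 2 below (21.2%) and 1 above (28.7%). The spliceosomal kinase PRPF4B was at 128 and 126 CPM in DMSO and 46.2 and 60.04 CPM with YW-LF, SRPK1, which phosphorylates SR proteins in the cytoplasm, at 266 and 206 CPM in DMSO and 144 and 119.95 CPM with YW-LF, and DYRK1A at 16.7 and 23.8 CPM in DMSO and 27.6 and 46.5 CPM with YW-LF. SRPK1 and PRPF4B were therefore on the opposite side of the controls from CLK1 and CLK3. Among 35 SR-related genes 5 were above and 5 below (10 and 7 in plain CPM), or 28.6% apart against 55.8% of all genes, and the cyclin L genes, partners of splicing kinases, were the leading ones. CCNL1 was at 51.3 and 36.7 CPM in DMSO, 121 CPM in YW-LF 1 and 528 CPM in YW-LF 2 (log2 change 2.88, SE 0.73, edgeR adjusted p = 0.131), and CCNL2 at 26.5 and 19.6 CPM in DMSO and 50.8 and 77.2 CPM with YW-LF. The splicing factor gene RBM25 was at 231 and 337 CPM in DMSO and 119 and 186 CPM with YW-LF.

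Of 47 core spliceosome genes 9 were above and 11 below (13 and 13 in plain CPM), or 42.6% apart against 55.8% of all genes. YW-LF 2 exceeded YW-LF 1 in all 47 (49.5% of all genes), and in 35 in plain CPM (28.6% of all genes). DDX23, a helicase of the tri-snRNP, was at 111 and 114 CPM in DMSO and 39.0 and 49.6 CPM with YW-LF. SNRNP40 was at 51.0 and 53.0 CPM in DMSO and 22.7 and 23.2 CPM with YW-LF, and SF3A1 at 174 and 316 CPM in DMSO and 92.3 and 109.7 CPM with YW-LF. Among 36 rows for other splicing regulators (2 rows carry the symbol MATR3), 20 were below (27.8% of all genes) and 2 above (28%), with a median log2 fold change of -0.50 beside 0.063 over all genes. In plain CPM 15 were below (21.2% of all genes) and 7 above (28.7%). The paraspeckle protein gene PSPC1 was at 75.5 and 104 CPM in DMSO and 21.9 and 33.4 CPM with YW-LF, MBNL3 at 21.5 and 19.4 CPM in DMSO and 6.03 and 7.19 CPM with YW-LF, and RBM4B at 32.9 and 32.3 CPM in DMSO and 12.6 and 11.8 CPM with YW-LF. These 3 had log2 fold changes of -1.70 (SE 0.40), -1.63 (SE 0.41) and -1.42 (SE 0.37).

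**Figure D5:**
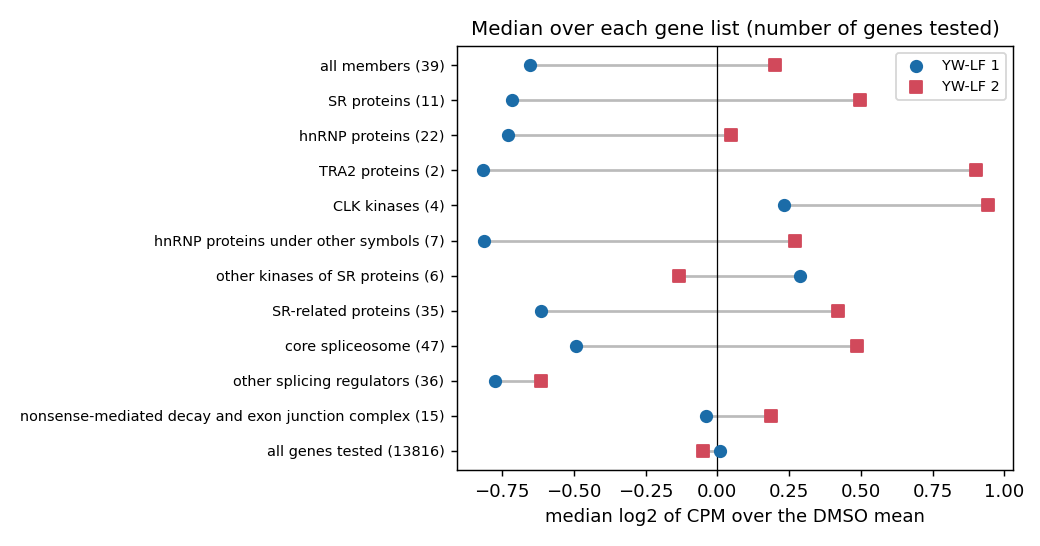
Each row gives the median over a gene list of the log2 ratio to the DMSO mean (TMM-scaled CPM) in YW-LF 1 and in YW-LF 2, with the number of genes tested. SR, hnRNP, SR-related and core spliceosome medians lie below 0 in YW-LF 1 and above 0 in YW-LF 2, the CLK medians are above 0 in both (0.23 and 0.94), and the medians over all genes are 0.011 and -0.049.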

How the data were processed

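Messenger RNA libraries of MDA-MB-231 cells (DMSO, n = 2; YW-LF, n = 2) were analysed. The deposited table holds raw counts (whole numbers, a row for each gene, library totals that differ). For aligner, counter, strand setting and annotation no source was at hand. Mouse builds (GRCm38, mm10) stand in the submitters' processing notes, although the rows are human Ensembl genes. Symbols were found for 20148 of 20263 identifiers. A second deposited table has columns (2 in number) under names absent from the labels, and these were left out.

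The main test was edgeR 4.0.16 (R 4.3.3): filterByExpr (13816 genes), TMM scaling, quasi-likelihood F-test without covariates, Benjamini-Hochberg adjustment over all genes, threshold 0.05. SE is the log2 fold change over the square root of F. Groups are apart when both YW-LF libraries lie on 1 side of both DMSO libraries. Exon lengths are unions over GENCODE 29 basic transcripts. Alternatives were DESeq2 1.42.0, limma-voom (limma 3.58.1), robust fitting, other scalings and filters, removal of mitochondrially encoded genes, the replicate number as a block and each library left out; a length and GC correction was added after seeing the data. The edgeR script was tested on simulated data.

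Values per library are given for SRSF, TRA2 and CLK genes, for HNRNPA1, HNRNPA2B1, HNRNPC, HNRNPK and HNRNPU, and for up to 4 hnRNP genes of lowest p per direction, with the 3 of lowest p (mean of at least 5 CPM) in each related list, of which 1 gene is not reported here. Other hnRNP genes and ratios of single genes were chosen after their values were seen. Members and lists were chosen with earlier results of these data known.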

Additional observations from a re-analysis of the deposited data

How the results depend on the processing

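The shallowest library held 34774542 counts, and the effect of depth or of more replicates on the calls was not tested. Calls over all genes were 0 higher and 0 lower in edgeR, 816 and 621 in DESeq2 and 155 and 120 with a total count of at least 1, where 0 members were called by edgeR. Members called were 1 higher and 2 lower in DESeq2. With the replicate block, edgeR called 186 genes higher and 145 lower, and 0 members; same-numbered libraries deviated together only weakly (r = 0.078 across 12584 genes), and the labels tie the numbers to no batch. Leaving out 1 library at a time gave 46 to 2963 genes higher and 16 to 2919 lower, 0 to 7 members higher and 0 to 12 lower, 5 to 22 members apart above DMSO and 12 to 29 below, and 67.1% to 88.8% of all genes apart. For these fits the share of all genes apart is given for both directions together, and the numbers of genes tested differed between fits. The counts of members apart per direction thus have no matching share of all genes, and whether they exceed it was not tested. In the same fits the family medians ran from -0.73 to 0.49 (SR), -0.74 to 0.043 (hnRNP), -0.83 to 0.90 (TRA2), 0.22 to 0.94 (CLK) and -0.67 to 0.20 (all members). The log2 ratios of summed CPM ran from -0.44 to 0.74 (SR), -1.03 to -0.082 (hnRNP), -0.92 to 0.88 (TRA2), 0.29 to 1.70 (CLK) and -0.89 to 0.16 (all members). Log2 fold changes that turned sign in these fits ranged from -0.96 to 0.52 (SRSF1), -0.84 to 1.43 (SRSF3), -0.79 to 0.60 (SRSF4), -0.39 to 0.49 (SRSF6), -0.73 to 0.24 (SRSF10), -0.66 to 0.94 (TRA2A), -1.002 to 0.86 (TRA2B), -1.44 to 0.21 (HNRNPA2B1), -0.47 to 0.33 (HNRNPC), -0.070 to 1.12 (HNRNPH2), -0.53 to 0.34 (HNRNPK) and -0.73 to 0.29 (HNRNPU). Elsewhere signs turned only for values near 0: SRSF4 was at -0.069 with limma-voom, -0.0049 with upper quartile scaling and -0.087 with the replicate block, TRA2B at -0.0045 with limma-voom and -0.0635 with the block, and SRSF11 at 0.0031 with library size only. With the length and GC correction CLK4 was at -0.13, HNRNPC at 0.094 and HNRNPU at 0.11, and HNRNPC was at 8.8e-04 with DESeq2 and 9.0e-04 with DESeq2 size factors in edgeR. The cause of these changes was not tested. Signs were followed only for SRSF, TRA2 and CLK genes, some hnRNP genes and the leading genes of the related lists. They were not followed for other hnRNP genes, such as HNRNPF, HNRNPH3, HNRNPL and HNRNPDL.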

Other observations

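The machinery that removes transcripts with premature stops, which also clears the poison-exon transcripts of SR genes, was measured through 15 genes of nonsense-mediated decay and the exon junction complex. Both YW-LF libraries were above DMSO in 2 of these (28% of all genes) and below in 4 (27.8%), or 5 and 4 in plain CPM (28.7% and 21.2% of all genes), and edgeR called 0 after adjustment. SMG9, a subunit of the SMG1 kinase complex, was at 84.3 and 154 CPM in DMSO and 46.5 and 20.3 CPM with YW-LF (log2 change -1.83, SE 0.54). SMG8, the partner of SMG9, was at 32.8 and 31.4 CPM in DMSO and 45.8 and 71.4 CPM with YW-LF (log2 change 0.87, SE 0.38). SMG8 and SMG9 were therefore on opposite sides of the controls.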
